A study of Mus musculus with 6 samples.

Results

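In gastrocnemius muscle, 10 genes of cell adhesion were followed: the tensins Tns1, Tns2, Tns3 and Tns4, the integrin subunits Itga7 and Itgb1, the talins Tln1 and Tln2, vinculin (Vcl) and the integrin-linked kinase Ilk. The data were 6 Affymetrix expression arrays, 1 per mouse. The 3 control mice carried floxed TAK1 alleles without deletion, and the 3 knockout mice were littermates examined 3 weeks after muscle-specific deletion of TAK1, a kinase encoded by Map3k7 that relays cytokine signals. The labels do not name the Cre driver, the way deletion was started, or the age of the mice. A gene was taken from the row whose annotated symbol it was, and 9 of the 10 genes had such a row, 1 each, among 22180 genes. Ilk occurred on 3 rows, each shared with a second gene, so it has no value here. The set was chosen by an earlier result of these arrays, the called rise of Tns3 in the same comparison, so the difference of Tns3 is given as a description and supports nothing.

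Costameres are the lateral attachments of skeletal muscle fibres, which tie the Z-discs of the outer myofibrils through the cell membrane to the basement membrane. One of their adhesion systems is built on the integrin alpha7 beta1, a laminin receptor, whose beta tail binds talin, and talin in turn recruits vinculin and actin. Tensins join the same sites from the cytoplasm: their C-terminal region holds an SH2 domain and a phosphotyrosine-binding domain, the latter of which binds integrin beta tails, and the larger tensins also bind actin.

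All values are deposited log2 levels, on which a difference of 1 is a doubling. Differences are knockout minus control, errors are SDs over 3 mice unless named otherwise, and adjusted p-values come from 1 limma fit over all genes. Genes for olfactory and vomeronasal receptors, most of which are silent in muscle, gave a background level: their 95th percentile was 5.85. Of the 9 measured genes, 8 lay above it on all 6 arrays and Tns4 on none. The arrays had medians of 5.78 to 5.84. The targeted gene Map3k7 had a mean of 8.40 ± 0.07 in controls and of 8.22 ± 0.06 in knockouts (SD, n = 3), a difference of −0.19 that did not pass (limma, adjusted p = 0.686). Every knockout value of Map3k7 was lower than every control value, with a gap of 0.04, as in 6.65% of all genes. The labels do not say which part of the gene was removed. The part of cells other than fibres in these levels was not tested. The 13 muscle fibre markers, such as Acta1 and Ckm, were all above background, with mean levels per array of 13.38 to 13.49 in control and 13.37 to 13.39 in knockout muscle. Of these, 4 were higher and 9 lower, with a median difference of −0.006. With 1 array left out that median was −0.036 to −0.014. In 4 of the 13 (Acta1, Myh1, Mylpf and Tnnc2), or 30.8% beside 6.65% of all genes, every knockout value was lower than every control value.

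Tns3 was the 1 gene among the 9 that passed the test over all genes, at an adjusted p of 0.0497 (limma), and 8 did not pass. Over all genes, 0.0947% were called, 0.0406% higher and 0.0541% lower, and Tns3 was the 21st of 21 called genes by p. The mean was higher in knockout muscle for 7 of the 9 genes and lower for 2 (Tns2 and Tns4, the latter within background), and 49.9% of all genes were higher. The median difference of the 9 was 0.16, beside −0.0003 for all genes. In 3 of the 9, Tns3, Tln1 and Vcl, every knockout value lay above every control value. Over all genes the groups did not overlap in 13.4%, with knockout higher in 6.74%. Because the set was built around Tns3, nothing is read from these shares.

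**Figure D1:**
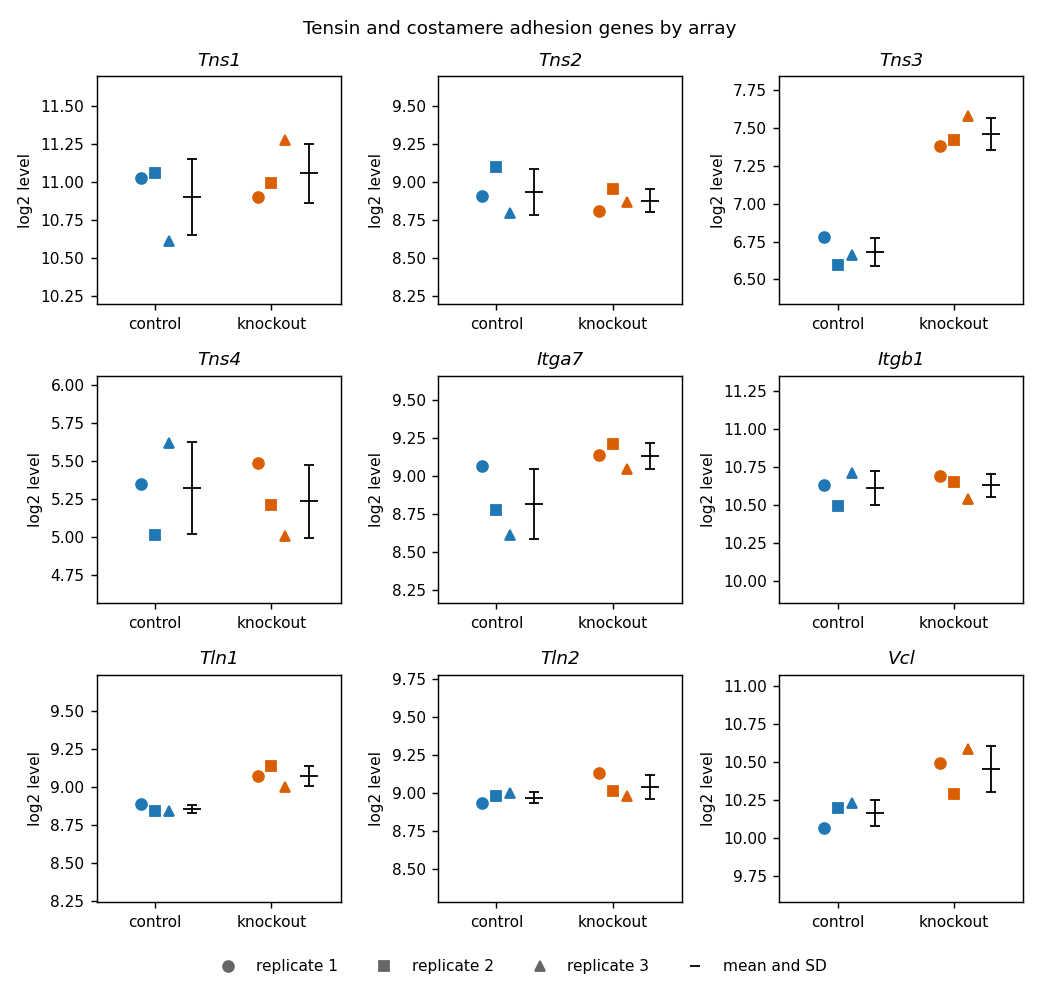
Log2 level (vertical axis, a span of 1.5 in each panel) of the 9 measured genes on each array, with the mean and SD of 3 control (blue) and 3 knockout (orange) arrays. The groups stand apart in Tns3, Tln1 and Vcl and overlap in the other panels.

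Promoters are shown for the 3 genes whose groups did not overlap, as RefSeq gives them for GRCm38.p6. Each is the 250 bases before an annotated start, 5′ to 3′ on the gene's strand, with motif matches in capitals. The Tns3 window is chr11:8664536-8664785 on the minus strand, the Tln1 window chr4:43562584-43562833 on the minus strand and the Vcl window chr14:20929148-20929397 on the plus strand.
Tns3: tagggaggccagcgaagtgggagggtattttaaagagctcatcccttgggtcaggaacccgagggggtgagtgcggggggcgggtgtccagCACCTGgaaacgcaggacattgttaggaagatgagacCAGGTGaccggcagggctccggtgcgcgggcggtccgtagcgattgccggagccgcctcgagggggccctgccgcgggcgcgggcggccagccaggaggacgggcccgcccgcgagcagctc
Tln1: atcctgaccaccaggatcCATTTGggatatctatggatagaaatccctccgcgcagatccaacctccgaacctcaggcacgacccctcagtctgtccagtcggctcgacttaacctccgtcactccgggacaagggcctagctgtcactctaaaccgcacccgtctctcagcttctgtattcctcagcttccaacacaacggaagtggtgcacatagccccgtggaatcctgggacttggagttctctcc
Vcl: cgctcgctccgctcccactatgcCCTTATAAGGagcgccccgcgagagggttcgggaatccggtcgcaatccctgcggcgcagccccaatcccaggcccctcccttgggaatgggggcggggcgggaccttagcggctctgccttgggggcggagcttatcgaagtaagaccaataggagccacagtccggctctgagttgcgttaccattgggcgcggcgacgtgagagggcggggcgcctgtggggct
For Tns3 and Vcl the RefSeq gene record begins inside the window or upstream of it, so part or all of the window belongs to longer transcripts.

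In these windows 5 motifs were searched on both strands: the CArG box of serum response factor, the AP-1 site TGANTCA, the kappaB site of NF-kB, the MEF2 site and the E-box CANNTG bound by myogenic factors. No match in the windows printed overlaps another. The Vcl window held a CArG box, CCTTATAAGG, with its first base 227 bases before the start. Of 32851 promoter windows of this length, 1.47% held such a box. Tns3 had E-boxes at 159 (CACCTG) and 122 (CAGGTG) bases before its start, and Tln1 had 1 at 232 bases (CATTTG), a motif that 66.2% of windows held. None of these 3 windows held the letters of an AP-1, kappaB or MEF2 site, which 6.75%, 3.9% and 2.92% of windows held. These matches describe letters and show no binding. Windows of 7 of the 10 genes were listed, and those of Tns1, Tns2 and Itgb1 held no match to any of the 5 motifs. The 2 windows listed for Ilk, which has no expression value here, held an E-box (CACGTG) and 2 kappaB matches that overlap each other (GGGAGTTCCC and GGAGTTCCCC).

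Among the tensins, Tns3 is a focal adhesion protein that also takes part in cell migration. Its levels were 6.78, 6.60 and 6.66 in the 3 control mice and 7.38, 7.42 and 7.58 in the 3 knockout mice. All knockout values were high and all control values low, with a gap of 0.60 between the groups. The means were 6.68 ± 0.09 and 7.46 ± 0.10 (SD, n = 3), a 1.71-fold difference with a 95% confidence interval of 1.46 to 2.02. On the log2 scale this was 0.78 (SE 0.10). Of genes whose higher group mean was above background, 45 rose more by their means, and 8 of those were called. Tns3 thus had the smallest rise of the 9 genes called higher. Its control mean lies 0.83 above the background level, where RMA, the authors' summary method, can compress differences.

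The size of the Tns3 difference moved little between settings, but its call did. Leaving out each array in turn gave differences of 0.72 to 0.83 and adjusted p-values of 0.107 to 0.245 (limma), so the call was lost in all 6 of these fits. With control 1, 2 or 3 left out the adjusted p was 0.107, 0.179 or 0.245, and with knockout 1, 2 or 3 left out it was 0.119, 0.218 or 0.127. With all arrays and group means only, the call was lost with median centring (adjusted p = 0.0515), with every probe set tested (0.215) and in a per-gene model that does not share variance (0.412). Tests of genes above background gave 0.0174 and an intensity trend with a robust prior gave 0.0221.

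**Figure D2:**
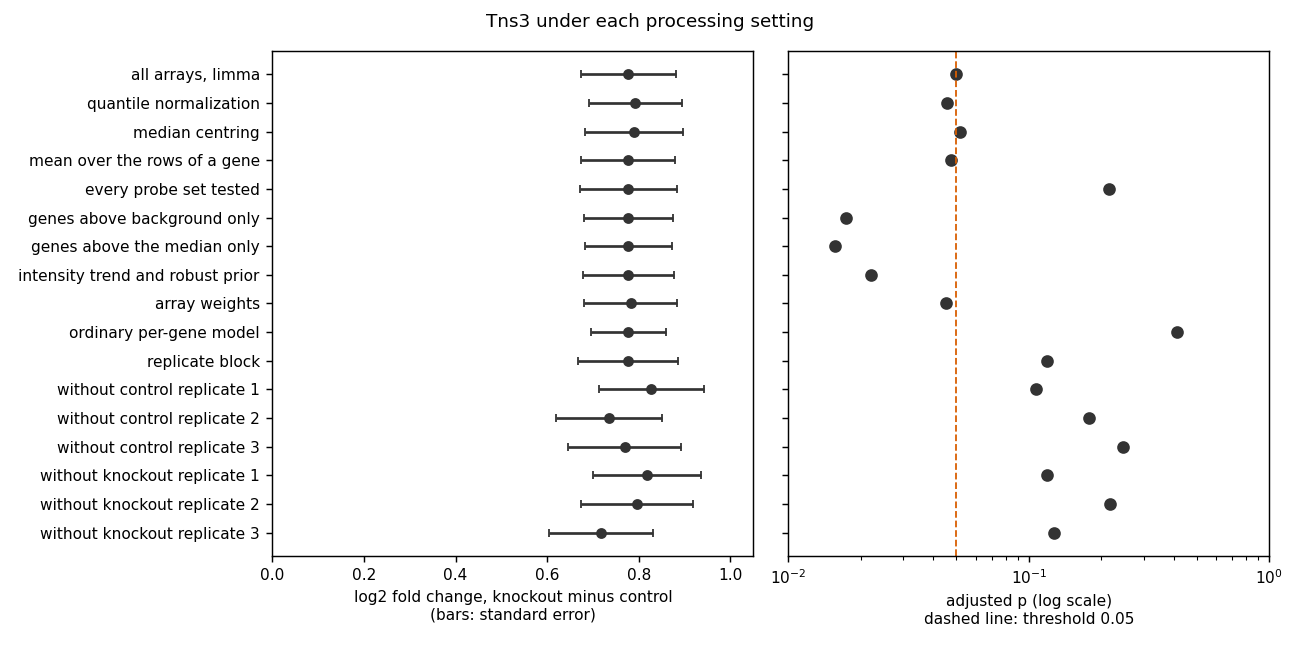
Tns3 in 17 fits: the left panel gives the log2 fold change with its standard error, the right panel the adjusted p on a log axis with the threshold of 0.05 dashed. The differences stay between 0.72 and 0.83 while the adjusted p runs from 0.0156 to 0.412.

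Tns1, the tensin first described at focal adhesions, is an actin-binding member of the family. It had levels of 11.03, 11.06 and 10.62 in control and 10.90, 11.00 and 11.28 in knockout muscle. The groups overlapped, with control 3 the lowest and knockout 3 the highest of the 6. The difference was 0.16 with a 95% confidence interval of −0.19 to 0.50, which did not pass (limma, adjusted p = 0.861). It was 0.01 without control 3 and 0.05 without knockout 3, the mice at either end of the range.

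Tns2, which has a phosphatase-like domain and a C1 domain, had levels of 8.91, 9.10 and 8.80 in control and 8.81, 8.96 and 8.87 in knockout muscle. The knockout values lay within the control range, with a difference of −0.06 and an interval of −0.31 to 0.20 (limma, adjusted p = 0.950). Tns4, the short tensin without the actin-binding part, ranged from 5.01 to 5.62 in control and from 5.01 to 5.49 in knockout muscle, below the background level on every array. Its measured difference of −0.09 (interval −0.49 to 0.31, limma, adjusted p = 0.950) lies within background and is not read as a fold or a direction.

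Of the integrin chains, Itga7 codes for the alpha subunit of the main laminin-binding integrin of muscle fibres. Its levels were 9.07, 8.77 and 8.61 in control and 9.14, 9.21 and 9.04 in knockout muscle. Control 1 lay between the knockout values, and the other two controls lay below all of them. The difference was 0.32, or 1.25-fold, with an interval of 0.02 to 0.61, and it did not pass over all genes (limma, adjusted p = 0.597). Leaving out 1 array moved it between 0.21, without control 3, and 0.44, without control 1. Itgb1, the beta1 chain that Itga7 pairs with, had levels of 10.63, 10.49 and 10.71 in control and 10.69, 10.65 and 10.54 in knockout muscle. These groups overlapped nearly throughout, with a difference of 0.02 and an interval of −0.22 to 0.25 (limma, adjusted p = 0.987).

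The talins link integrin beta tails to actin and switch integrins to their active state. Tln1 had levels of 8.89, 8.84 and 8.84 in control and 9.08, 9.14 and 9.00 in knockout muscle. The controls lay close together, with an SD of 0.03, and the nearest knockout value lay 0.11 above them. The difference was 0.22, or 1.16-fold, with an interval of 0.01 to 0.42, and it did not pass (limma, adjusted p = 0.611). Tln2, the talin more abundant in striated muscle, had levels of 8.93, 8.98 and 9.00 in control and 9.13, 9.01 and 8.98 in knockout muscle. Its groups overlapped, with a difference of 0.07 and an interval of −0.14 to 0.28 (limma, adjusted p = 0.912).

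Vinculin binds talin and actin and strengthens adhesions under load. Vcl had levels of 10.07, 10.20 and 10.23 in control and 10.50, 10.29 and 10.59 in knockout muscle. Knockout 2 lay only 0.06 above control 3, and the other two knockout values lay higher. The difference was 0.29, or 1.22-fold, with an interval of 0.04 to 0.54, and it did not pass (limma, adjusted p = 0.551). In all, 4 of the 9 genes (Tns3, Itga7, Tln1 and Vcl) had an unadjusted p below 0.05, which 8.04% of all genes had. Nothing is read from this count either, since Tns3 was already called when the set was chosen.

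**Figure D3:**
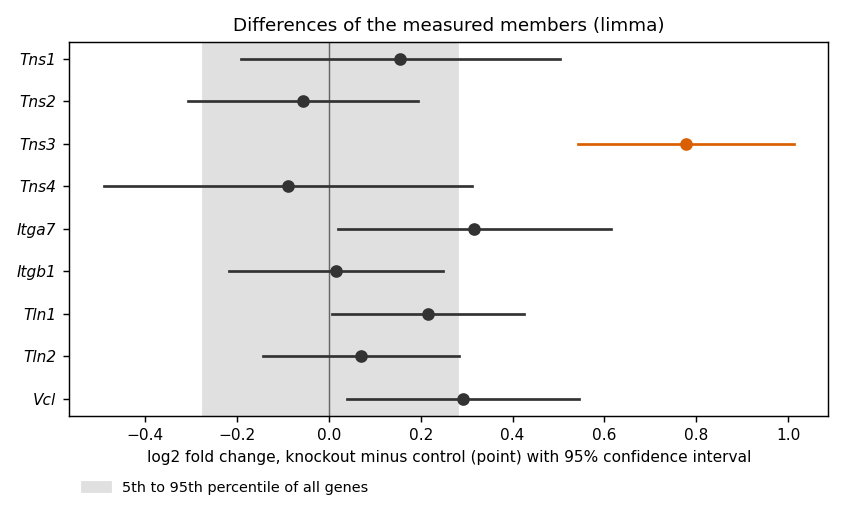
Log2 fold change of the 9 measured genes (points) with 95% confidence intervals (lines), beside the 5th to 95th percentile of all genes, −0.27 to 0.28 (grey band). Tns3, the 1 gene called and drawn in orange, has an interval of 0.54 to 1.01 outside the band, and the other 8 intervals reach into it.

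The 5 genes above background whose levels followed Tns3 most closely were Gm6570, Abcf1, Spag9, Klhdc1 and Fkbpl. Pearson's r with Tns3 over the 6 arrays was 0.984 to 0.990 among 12582 genes compared, and within groups, after subtracting group means, 0.65 to 0.91. The arrays share their group difference, and r over so few of them is a description. Abcf1, a factor in translation initiation, was higher by 0.19, and Spag9, a scaffold of JNK and p38 kinases, by 0.21. The largest difference of the 5 was that of Klhdc1, a kelch-domain protein, at 0.47 (limma, adjusted p = 0.221), and 0 of the 5 passed.

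Related genes were described in 5 lists covering the integrin chains, their ligands, adaptors and kinases, and the dystrophin complex with other costamere genes. Of 127 genes listed, 115 had a row of their own, and 0 of these passed over all genes (limma), where 0.0947% of all genes did. An unadjusted p below 0.05 was found for 19 (16.5%), beside 8.04% of all genes. All genes include many not above background, unlike most of these lists. When the 12583 genes above background were fitted alone, 610 were higher and 760 lower at an unadjusted p below 0.05 (limma). The share of 16.5% is a description, since no test of the lists was made. Of 18 basement membrane genes, which include the laminins that integrin alpha7 beta1 binds, 5 were higher and 13 lower, with a median difference of −0.10. Knockout was lower without overlap in 1 (Lamc1; 5.56%, beside 6.65% of all genes). It was higher without overlap in 1 (Lama1, not above background; 5.56%, beside 6.74%). Lamc1, the laminin gamma1 chain, had levels of 9.43, 9.40 and 9.59 in control and 9.32, 9.25 and 9.10 in knockout muscle. The highest knockout value was 0.08 lower than the lowest control value, with a difference of −0.25 (limma, adjusted p = 0.601). The median of this list was −0.02 without knockout 3 and −0.19 without knockout 1.

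Of 23 other integrin subunits, 8 were higher and 15 lower, with a median of −0.04, and in 2 (8.70%, near the 6.74% of all genes) knockout was higher without overlap. One was Itgav, the alpha chain of vitronectin receptors, with a difference of 0.37 (limma, adjusted p = 0.469). A second row of Itgav, at 4.76 in control and 4.63 in knockout muscle, lay below background and differed by −0.12, and the mean over both rows differed by 0.12. The second subunit was Itga9, at 0.12 (adjusted p = 0.817). The largest difference of this list was that of Itga4, at −0.76 with overlapping groups (limma, adjusted p = 0.439).

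Adaptors and focal adhesion proteins include those that carry the connection from the integrin tail to actin. Of 32 genes of this list measured, 11 were higher and 21 lower, with a median of −0.10. In 8 (25%) every knockout value was lower than every control value, beside 6.65% of all genes, and in 0 they lay above. This share is a description, since no test of the list was made. Sorbs2, an adaptor at Z-discs and adhesions, had levels of 8.84, 8.19 and 8.36 in control and 7.57, 6.96 and 7.41 in knockout muscle. The groups were 0.63 apart, and the knockout mean was 2.22-fold lower (log2 difference −1.15, limma, adjusted p = 0.135). A second row of Sorbs2 differed by −0.43. Pdlim7, a PDZ and LIM protein of the Z-disc, had levels of 8.54, 8.26 and 8.35 in control and 7.75, 7.22 and 7.61 in knockout muscle. It was 1.81-fold lower, with a gap of 0.51 and knockout 2 the lowest (log2 difference −0.85, limma, adjusted p = 0.135). Nexn, an actin-binding protein of the Z-disc, differed by −0.42 (limma, adjusted p = 0.300).

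Of 20 measured kinases and partners of integrin signalling, 8 were higher and 12 lower, with a median of −0.04. In 2 of the 20 (10%, beside 6.65% of all genes) knockout was lower without overlap. They were Crk, an SH2 adaptor below focal adhesion kinase, at −0.32 (limma, adjusted p = 0.557), and Arhgef7, an exchange factor, at −0.16 (adjusted p = 0.747).

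The dystrophin complex is the other main link between costameres and the basement membrane. It was listed together with other costamere genes, such as Des, Plec and Krt8. Of the 22 measured, 7 were higher and 15 lower, with a median of −0.10. Knockout was lower without overlap in 7 (31.8%, beside 6.65% of all genes) and higher without overlap in 4 (18.2%, beside 6.74%). Dmd, the gene of dystrophin, had levels of 11.55, 11.32 and 11.25 in control and 10.70, 10.79 and 10.99 in knockout muscle. It was 1.46-fold lower in the knockout mean without passing (log2 difference −0.55, limma, adjusted p = 0.233). Nos1, the neuronal nitric oxide synthase that docks on this complex, differed by −0.74 with a control SD of 0.46 (limma, adjusted p = 0.419). Without control 1, the highest of the 6 arrays, the Nos1 difference was −0.49. Ank2, an ankyrin that anchors dystrophin, was higher by 0.46 (limma, adjusted p = 0.452).

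**Figure D4:**
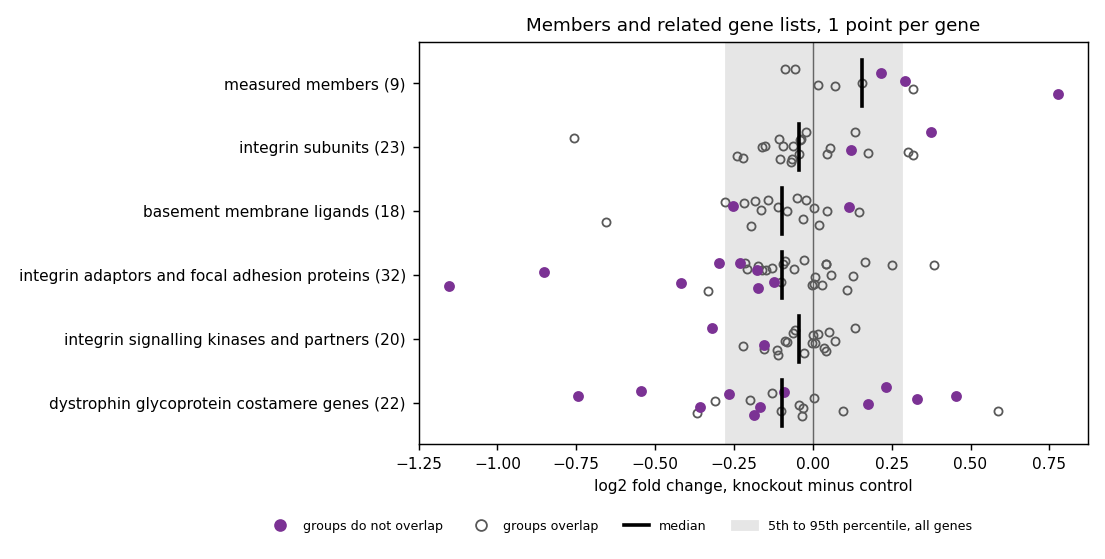
Log2 fold change of each measured gene in the set and in 5 related lists (number of genes in brackets), with the median as a bar and the 5th to 95th percentile of all genes in grey. Filled points are genes whose groups do not overlap: in the adaptor list all 8 of them lie below 0, and in the set of 9 all 3 lie above it.

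Whole muscle also holds vessels, connective tissue and immune cells, in which tensins, talins and vinculin are made as well. In such bulk samples, fewer cells of a type and less RNA per cell cannot be told apart. Markers of 8 other cell types were set beside Tns3. Endothelial markers were higher in 5 of 10 cases, with a median difference of −0.003, and mean levels per array of 7.98 to 8.25 in control and 8.02 to 8.10 in knockout muscle. Smooth muscle and pericyte markers were higher in 4 of 10, with a median of −0.11 and levels of 8.40 to 8.59 and 8.28 to 8.45. That median was 0.024 without control 2 and −0.21 without control 1. Fibro-adipogenic markers were higher in 3 of 10, with a median of −0.10 and levels of 9.46 to 9.88 and 8.98 to 10.04. The control and knockout levels of these 3 lists overlapped, and their part in the Tns3 difference was not tested.

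Macrophage markers were higher in 5 of 9, with a median of 0.004 and levels of 7.22 to 7.56 in control and 7.23 to 7.59 in knockout muscle. Satellite cell markers were higher in 2 of 6 (median −0.13), adipocyte markers in 1 of 5 (median −0.08) and Schwann cell markers in 2 of 4 (median 0.007). These medians moved with single mice. Leaving out 1 array gave −0.15 (without knockout 1) to 0.12 (without control 1) for macrophages. It gave −0.19 to −0.002 for satellite cells, −0.23 to 0.026 for adipocytes and −0.028 to 0.11 for Schwann cells. The value of −0.002 was without knockout 3. Satellite cell levels were 6.79 to 6.90 in control and 6.57 to 6.74 in knockout muscle. In 2 of these 6 markers, Cdh15 and Chodl (33.3%, beside 6.65% of all genes), knockout was lower without overlap. Tenocyte markers were lower in 9 of 9, with a median of −0.68 and levels of 7.49 to 7.89 in control and 6.61 to 7.47 in knockout muscle. Knockout 3 had the lowest tenocyte and fibro-adipogenic levels, and without it their medians were −0.53 and 0.07, while without knockout 1 they were −1.08 and −0.25. The Tns3 difference was 0.72 without knockout 3 and 0.82 without knockout 1. The part of these cell types in the differences of Tns3 and the other genes was not tested. Markers not above background were Cnn1, Mkx, Calcr, Lep and S100b, and 0 of 76 marker genes, those of fibres included, passed over all genes (limma). Of these, 11 (14.5%) had an unadjusted p below 0.05, beside 8.04% of all genes, which include many not above background. This share too is a description.

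**Figure D5:**
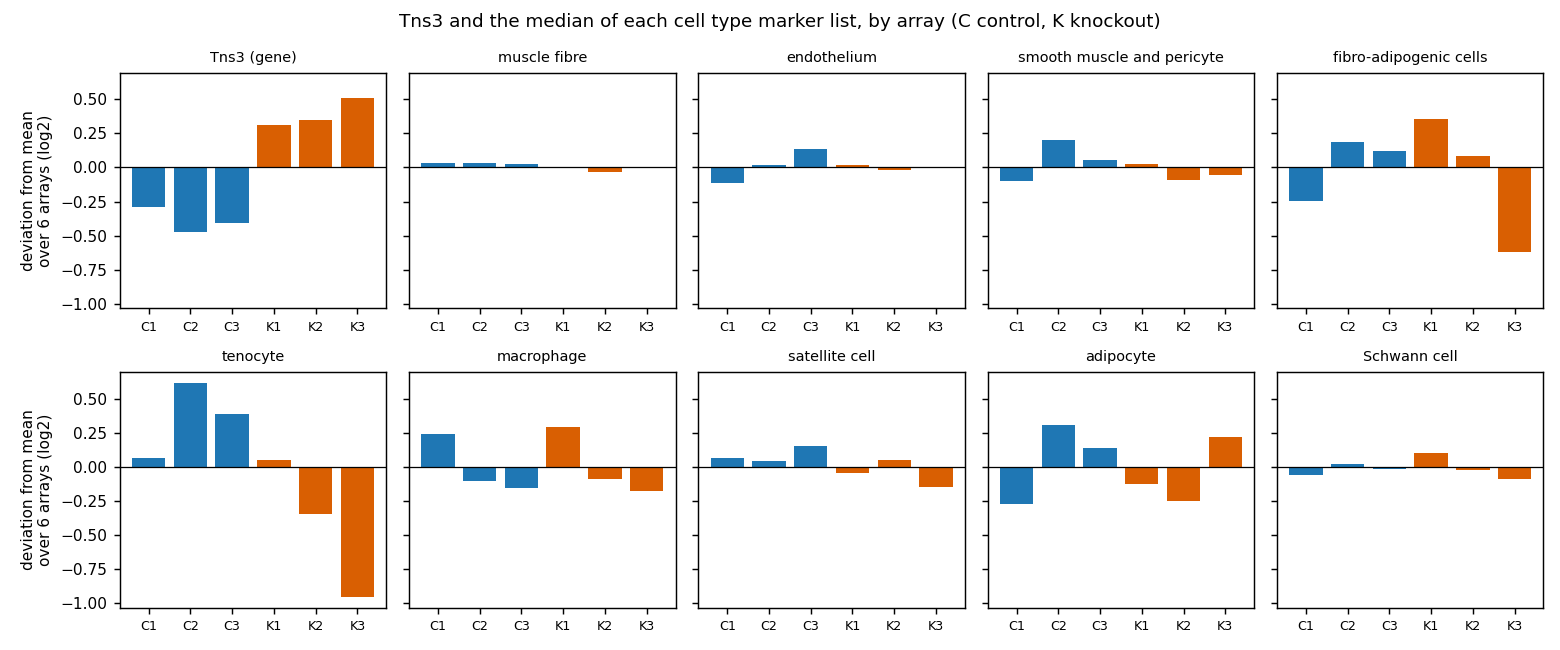
Deviation from the mean over 6 arrays (log2) for Tns3 and for the median gene of each marker list, in 3 control (C, blue) and 3 knockout (K, orange) arrays. Tns3 lies below 0 in all controls and above 0 in all knockouts, while tenocyte markers lie lowest in knockout 3 and highest in control 2.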

How the data were processed

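Trizol-extracted total RNA was hybridised as biotinylated cRNA, per the labels' protocols. The deposited values are log2 probe set summaries for 41345 probe sets. The submitters' processing notes name RMA, oligo and limma, without versions or order. RMA corrects background, equalises array distributions and compresses differences of dim genes. Symbols came from GEO's platform annotation (23521 probe sets with 1 symbol, 1814 with several, 16010 with none), and the row with the highest mean over all 6 arrays stood for a gene.

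Groups were compared with limma 3.58.1 (R 4.3.3; lmFit and eBayes, two-sided, Benjamini-Hochberg over 22180 genes, threshold 0.05). Scripts were tested on simulated data, and plots used matplotlib 3.10.9. The genes, lists and tests were chosen with earlier results of these data known. Named were all 10 genes, Map3k7 and the 5 genes most like Tns3. From each related list came called genes plus up to 3 above-background genes with the largest differences among those whose groups did not overlap. Itga4 and the second rows of Itgav and Sorbs2 were added after their values were seen. So were other genes named only as examples of a list. Alternatives were other normalizations, rows, filters, variance models, array weights, a replicate block and leaving out each array. The number of arrays limits precision. The labels give separate mice, and scan batches were not analysed here.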

Additional observations from a re-analysis of the deposited data

How the results depend on the processing

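Of the 9 genes, Tns1, Itga7, Tln1, Tln2 and Vcl kept their direction and stayed uncalled in all 16 alternatives. Tns3 kept its direction in all 16, and its call was lost in 10: median centring (difference 0.79), every probe set tested, the per-gene model and the replicate block (0.78 each), and without each array (0.72 to 0.83). Differences near 0 changed sign when 1 array was left out, with ranges of −0.13 to 0.026 for Tns2, −0.25 to 0.057 for Tns4 and −0.043 to 0.067 for Itgb1. In detail, Tns2 was 0.026 and Itgb1 −0.043 without control 2, Itgb1 was −0.014 without knockout 1, and Tns4 was 0.057 without control 3 and 0.024 without knockout 3. The cause was not tested. Over all genes, 9 were called higher and 12 lower. These counts were 5 and 1 with every probe set tested, 17 and 28 with genes above background only, 19 and 34 with genes above the median only, 15 and 21 under a robust prior with an intensity trend, and 0 and 0 in the per-gene model (777 and 835 at an unadjusted p below 0.05). Leaving out 1 array gave 1 to 3 higher and 1 to 8 lower.

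Replicate numbers are shared between the groups, but the labels tie no pair of mice. The correlation of same-numbered arrays' deviations was 0.08, 0.21 and −0.07, and control 1 was closest to knockout 3 (0.14), so the pairing was not used. With the replicate block 6 genes were called higher and 11 lower, Tns3 had an adjusted p of 0.119 and Sorbs2 passed (limma, adjusted p = 0.0454; 0.0454 to 0.555 over all its alternatives). Of 224 list medians under alternatives, 11 moved by over 1 SD between arrays, those of the muscle fibre, satellite cell, smooth muscle and Schwann cell markers. Tns4 lay below the background guide, and its level has only an upper bound.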
